A study of Sus scrofa with 9 samples.

Results

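FTL, the light chain of ferritin, and CP, ceruloplasmin, were described in porcine hatched blastocysts (HB) of 3 origins. They were 2 of the 7495 genes with a symbol on the array, and every probe carrying either symbol was taken, which gave 1 probe for FTL and 1 for CP. FTL and CP were selected on the log2 ratios of these same 9 arrays, for their differences between the groups, so the values of FTL and CP below are a description and carry no test. In vivo (IVV) HB were collected from inseminated gilts at a labelled 5.5 days post-insemination. The parthenogenetic activation (PA) HB were oocytes activated without sperm, and the chromatin transfer (CT) HB were cloned embryos, made from donor nuclei remodelled in vitro before transfer to enucleated oocytes. PA and CT oocytes were both matured in vitro, activated with calcium ionomycin and 6-dimethylaminopurine, and cultured in mNCSU-23 medium. Their collection time was labelled as 7 hours after in vitro fertilization, which is not an age at which a blastocyst exists, so the age of the PA and CT embryos was not taken from the labels. Origin of the genome, place of development and age therefore change together between IVV HB and the cultured groups and cannot be told apart.

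Each group had 3 arrays, and each array compared 1 pool of 5 embryos with a common reference made of equal amounts of amplified RNA from oocytes and in vivo embryos up to day 11. A value is a log2 ratio of embryo pool over reference, so 0 means the same signal as the reference, and a difference of 1 between groups is 2-fold. The methods call the pools biological replicates, while the labels do not say whether they came from separate collections, so the spreads and p-values below refer to these pools. In pooled embryos, fewer cells of a type and less RNA per cell cannot be told apart.

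Ferritin is the hollow protein shell in which cells keep iron. Its heavy chain, FTH1, oxidises ferrous iron, and its light chain, FTL, favours mineral formation inside the shell. Translation of both chains is held back by iron regulatory proteins when iron is scarce, so the amount of ferritin protein need not follow the amount of transcript. Ceruloplasmin is a copper-carrying ferroxidase, known mainly as a secreted liver protein, that oxidises iron leaving cells through ferroportin so that transferrin can bind it. One gene thus belongs to storage and the other to release.

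FTL was lowest in IVV HB, where the log2 ratios of the 3 arrays were -2.23, -1.89 and -1.61. It was highest in PA HB, with 0.53, 0.53 and 0.58. CT HB lay between, with -0.49, -0.49 and -0.31. No array of any group overlapped with an array of another group. FTL was thus below the reference in all IVV and CT pools and above it in all PA pools.

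The FTL mean was -1.91 ± 0.31 (SD, n = 3) in IVV HB, which is 0.266 of the reference signal. In PA HB it was 0.55 ± 0.03 (SD, n = 3), or 1.46 times the reference, and in CT HB -0.43 ± 0.10 (SD, n = 3), or 0.740 of it. Only 2.8% of genes had a lower mean than FTL in IVV HB, against 88.3% in PA HB and 22.2% in CT HB. FTL moved from the low end of the array in IVV pools to near its high end in PA pools. The PA pools were unusually alike in FTL, since only 1.1% of genes had a smaller SD in that group, where the median SD over all genes was 0.267.

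The mean of FTL was 2.46 higher on the log2 scale in PA than in IVV HB (5.49-fold), and the nearest arrays of those groups were 2.14 apart. In CT HB it was 1.48 higher than in IVV HB (2.78-fold), with a gap of 1.11 between the nearest arrays. CT HB were 0.98 below PA HB (1.97-fold), just under the 2-fold limit used for calls below, with a gap of 0.84. Both differences from IVV HB use the same IVV arrays, so they are not independent of each other. Among the 7495 genes ordered from the most positive difference, FTL stood at place 8 for PA minus IVV and at place 28 for CT minus IVV. From the most negative difference it was at place 402 for CT minus PA. Groups did not overlap for 30.8% of all genes between PA and IVV HB, for 19.2% between CT and IVV HB and for 31.2% between CT and PA HB, so a lack of overlap alone sets neither gene apart.

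CP had the opposite order, with its low values in PA HB. The IVV pools had log2 ratios of 0.85, 0.08 and 0.02. In CT HB the values were -0.44, -0.05 and 0.31, and in PA HB they were -1.35, -1.53 and -2.49. The PA arrays were all below every IVV and CT array, whereas the IVV and CT arrays overlapped.

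CP averaged 0.32 ± 0.47 (SD, n = 3) in IVV HB, or 1.25 times the reference. The mean was -0.06 ± 0.37 (SD, n = 3) in CT HB, or 0.961 of the reference, and -1.79 ± 0.61 (SD, n = 3) in PA HB, or 0.289 of it. CP was more variable between pools than most genes in every group. Its SD exceeded that of 91.2% of genes in IVV HB, 91.6% in PA HB and 86.5% in CT HB. IVV HB replicate 1 and PA HB replicate 3 were the pools farthest from their groups. The PA minus IVV difference was -2.11 with all arrays, -1.84 without IVV HB replicate 1 and -1.76 without PA HB replicate 3. Each of these pools thus enlarged it. Over all omissions of 1 array it ran from -2.33 to -1.76.

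The CP difference between PA and IVV HB was -2.11 on the log2 scale (4.32-fold lower in PA HB), with 1.37 between the nearest arrays. It was 1.74 higher in CT than in PA HB (3.33-fold), with a gap of 0.92. CP was at place 9 from the most negative of the 7495 differences for PA minus IVV and at place 17 from the most positive for CT minus PA. The CT minus IVV difference of -0.37 (1.30-fold) was within the spread of the pools. The order of the levels was therefore PA below both other groups, with CT and IVV HB not separated.

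**Figure D1:**
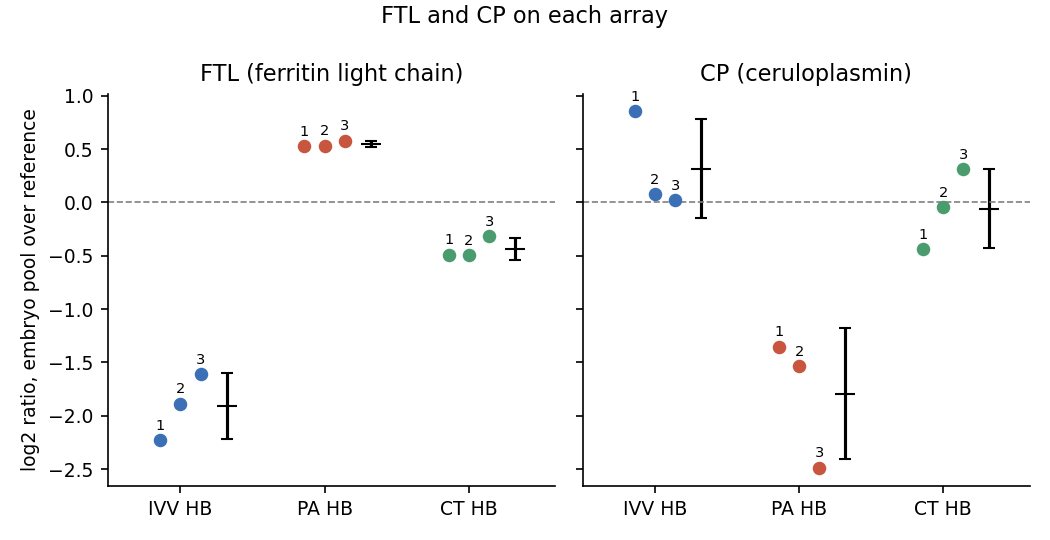
Log2 ratio of embryo pool over reference (vertical axis) for FTL and CP on each of the 9 arrays, numbered by replicate, with the group mean and SD in black. The 3 FTL groups are separate, with IVV HB between -2.23 and -1.61 and PA HB between 0.53 and 0.58; for CP only PA HB, from -2.49 to -1.35, stands away from the others.

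The pair did not form a simple mirror image. FTL differed between CT and IVV HB without overlap, and CP did not. Across the 9 arrays the Pearson correlation of FTL with CP was -0.83, a description only, since the arrays fall into 3 groups and share the reference. The CP value of -2.49 in PA HB replicate 3 came with an FTL value of 0.58, close to the 0.53 of the other PA pools, so the spread of CP in that group had no counterpart in FTL.

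The partners of FTL in ferritin were measured on the same arrays. FTH1 was above the reference in every pool, with log2 ratios of 0.88, 0.19 and 1.17 in IVV HB, 1.14, 0.82 and 1.15 in PA HB, and 0.78, 1.11 and 1.31 in CT HB. The groups overlapped, and FTH1 did not pass the test in PA against IVV HB (difference 0.29, SE 0.25, limma adjusted p = 0.48, with the sign turning to -0.21 after quantile and -0.11 after scale normalization). Its 2 probes gave 0.40 and 0.18 for that difference. In IVV HB the heavy chain was thus above the reference while the light chain was below it on all 3 arrays. FTMT, the mitochondrial ferritin, differed by -0.04 between PA and IVV HB (limma adjusted p = 0.95). The probe sequences were not used here, so signal from related ferritin copies cannot be told apart from that of FTL or FTH1.

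Other genes of storage and release were tested with limma over all 7495 genes, and a gene was called where the groups differed by 2-fold or more with an adjusted p no higher than 0.05. NCOA4, the receptor that carries ferritin to lysosomes for breakdown, had values of -1.35, -1.27 and -1.03 in IVV HB against -1.83, -2.75 and -1.38 in PA HB. This difference of -0.77 (SE 0.34) did not pass (limma adjusted p = 0.17). PCBP2, an iron chaperone for ferritin, read by 9 probes, differed by -0.26 between PA and IVV HB (limma adjusted p = 0.42, with the sign turning to 0.12 after scale normalization) and by 0.71 between CT and PA HB (limma adjusted p = 0.033, but under 2-fold). Fitted per probe, the latter ran from 0.18 to 1.29, and a probe at 1.20 passed both limits (limma adjusted p = 0.0077). SLC40A1, ferroportin, the iron exporter that CP works beside, had -0.21, -0.28 and -0.27 in IVV HB, -0.50, -1.23 and -0.46 in PA HB, and 0.74, -0.22 and 0.22 in CT HB. Like CP, it was lowest in PA HB on all arrays. The PA minus IVV difference of -0.48 did not pass (limma adjusted p = 0.26), and the CT minus PA difference of 0.98 passed on p (limma adjusted p = 0.029) but was only 1.97-fold. Fitted per probe, its 2 probes gave 1.27 (limma adjusted p = 0.015) and 0.68 (limma adjusted p = 0.092) for CT minus PA. The averaged CT minus PA difference passed both limits without PA HB replicate 1 (1.09), PA HB replicate 3 (1.11) or CT HB replicate 2 (1.21), and missed both without PA HB replicate 2 (0.73, limma adjusted p = 0.11), CT HB replicate 1 (0.73, limma adjusted p = 0.12) or CT HB replicate 3 (0.99, limma adjusted p = 0.093).

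Among genes of iron uptake and sensing, the one nearest to a call between PA and IVV HB was CYBRD1, a reductase that readies iron for import, which was named after its values were seen. Its log2 ratios were -0.28, -0.62 and -0.40 in IVV HB and -1.04, -1.99 and -1.23 in PA HB, without overlap, and the difference of -0.99 passed on p (limma adjusted p = 0.031) at 1.98-fold. Both limits were passed without IVV HB replicate 2 (-1.08) or PA HB replicate 1 (-1.18), whereas p was missed without IVV HB replicate 1, IVV HB replicate 3, PA HB replicate 2 or PA HB replicate 3 (limma adjusted p from 0.051 to 0.12) and after quantile (-0.78) or scale (-0.56) normalization. TFRC, the transferrin receptor, differed by 0.32 between PA and IVV HB (limma adjusted p = 0.29) and by 0.26 between CT and IVV HB (limma adjusted p = 0.69). IREB2, an iron regulatory protein that binds ferritin and transferrin receptor transcripts, differed by -0.31 between PA and IVV HB (limma adjusted p = 0.32). FBXL5, the iron-sensing ubiquitin ligase subunit that removes IREB2, was far below the reference everywhere, with -2.79, -2.77 and -2.77 in IVV HB, -2.83, -3.42 and -3.07 in PA HB, and -2.32, -2.48 and -1.81 in CT HB. For FBXL5 the CT minus PA difference of 0.91 passed on p (limma adjusted p = 0.016) at less than 2-fold, and it turned to -0.11 after scale normalization. FBXL5 passed both limits after quantile normalization (1.40) and without PA HB replicate 1 (1.04) or CT HB replicate 2 (1.05). Its PA minus IVV difference was -0.33 (limma adjusted p = 0.33) and became 0.91 (limma adjusted p = 0.017) after scale normalization. ATP7B, a copper pump that loads CP in the liver, differed by 0.21 between PA and IVV HB (limma adjusted p = 0.43). NFE2L2, the NRF2 factor that in human and mouse activates both ferritin genes, differed by -0.08 (limma adjusted p = 0.83, with the sign turning to 0.04 after scale normalization). Between CT and IVV HB, FTH1 differed by 0.32, PCBP2 by 0.46, SLC40A1 by 0.50 and FBXL5 by 0.57, all short of the test (limma adjusted p from 0.30 to 0.71).

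Of 148 genes in 8 lists of iron, haem, Fe-S, copper and NRF2 genes, 73 besides FTL and CP were measured. Between PA and IVV HB, 0 of the 73 were called higher and 5 lower, that is 6.85%, against 7.71% of all genes tested (4.34% higher and 3.38% lower). Between CT and IVV HB 0 were called by limma, against 0.654% of all genes (0.574% higher and 0.0801% lower). At an unadjusted p under 0.05, 9 of the 73 were higher and 2 lower there, beside 11% of all genes. Between CT and PA HB 5 were called higher and 2 lower, or 9.59%, against 7.78% of all genes (2.95% higher and 4.83% lower). The total shares lay near the background. By direction, the calls lower in PA than IVV HB made up all of the 6.85%, above the 3.38% of all genes. The 5 of 73 higher in CT than PA HB were likewise a larger share than 2.95%. These counts are small and carry no test. The median difference of the 73 was -0.05, 0.02 and 0.14 for PA minus IVV, CT minus IVV and CT minus PA, beside all-gene medians of 0.01, -0.01 and 0.00. Groups did not overlap for 25, 18 and 28 of the 73 in the same order, beside 30.8%, 19.2% and 31.2% of all genes.

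FTL and CP, which carry no test, were left out of the counts by list. No gene was called in any comparison in the lists of iron uptake (8 measured) or storage and ferritin turnover (4). The same held for ferroxidases and export (4) and for sensing and systemic regulation (10). At an unadjusted p under 0.05, these 26 genes gave 1 higher and 2 lower between PA and IVV HB, 3 higher and 0 lower between CT and IVV HB, and 5 higher and 1 lower between CT and PA HB. The shares of all genes at that threshold were 28.8%, 11% and 28.3% in the same order. The calls were in haem handling (15 measured, 1 lower in PA than IVV HB, 1 higher and 1 lower in CT than PA HB), mitochondrial iron and Fe-S assembly (15 measured, 2 lower, then 2 higher and 1 lower), copper handling (9 measured, 1 higher in CT than PA HB) and NRF2 and ferroptosis defence (8 measured, 2 lower, then 1 higher).

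ABCB6, a porphyrin transporter, had the pattern nearest to CP among the called genes of the iron-related lists. Its log2 ratios were 1.71, 1.00 and 1.09 in IVV HB, -0.24, -0.92 and -0.78 in PA HB, and 0.44, 0.45 and 0.94 in CT HB, with no overlap between PA HB and the other groups. It fell by 1.91 from IVV to PA HB (SE 0.25, 3.76-fold, limma adjusted p = 0.0018) and was 1.25 higher in CT than PA HB (limma adjusted p = 0.0082, but 0.058 after quantile normalization). Its Pearson correlation over the 9 arrays was 0.95 with CP and -0.91 with FTL. HSPA9, the mitochondrial chaperone that serves Fe-S scaffolds, was lower in PA than IVV HB (difference -1.28, limma adjusted p = 0.0053) and higher in CT than PA HB (1.05, limma adjusted p = 0.010). The latter dropped below 2-fold, at 0.91 to 0.98, without PA HB replicate 2, PA HB replicate 3 or CT HB replicate 1, and was also lost after quantile (0.91) and scale (0.67) normalization. After scale normalization the PA minus IVV difference of HSPA9 was under 2-fold too, at -0.92. PRDX1, a peroxidase, was lower in PA than IVV HB (-1.54, limma adjusted p = 0.014) and higher in CT than PA HB (1.56, limma adjusted p = 0.011). PRDX1 missed the threshold without IVV HB replicate 1 (limma adjusted p = 0.065) or PA HB replicate 2 (limma adjusted p = 0.058) in the first comparison and without CT HB replicate 3 (limma adjusted p = 0.059) in the second. After scale normalization it missed in both (limma adjusted p = 0.085 and 0.064).

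GCLM, the modifier subunit of the enzyme that starts glutathione synthesis, was lower in PA than IVV HB (-1.13, limma adjusted p = 0.017) and missed the threshold without IVV HB replicate 1 (limma adjusted p = 0.067) or PA HB replicate 3 (limma adjusted p = 0.053), and after quantile (limma adjusted p = 0.063) or scale normalization (limma adjusted p = 0.052). GLRX3, a cytosolic Fe-S glutaredoxin, was at the edge in both comparisons (-1.04 and 1.12, limma adjusted p = 0.045 and 0.033). GLRX3 lost its PA against IVV call with any array but IVV HB replicate 2 or CT HB replicate 2 left out (limma adjusted p from 0.054 to 0.18), and its CT against PA call without PA HB replicate 2 or 3 or CT HB replicate 1 or 3 (limma adjusted p from 0.066 to 0.14). The first was also lost after median centring, quantile and scale normalization (limma adjusted p = 0.052, 0.14 and 0.20), and the second after quantile and scale normalization (limma adjusted p = 0.091 and 0.15). GLRX, a glutaredoxin, was higher in CT than PA HB (1.94, limma adjusted p = 0.022), a call lost without the same 4 arrays (limma adjusted p from 0.065 to 0.10). The 2 genes lower in CT than PA HB were BOLA1, a mitochondrial partner of glutaredoxins, and FECH, which puts iron into haem. BOLA1 had tight groups of -0.88, -0.78 and -0.63 in IVV HB, 0.15, 0.30 and 0.00 in PA HB and -1.10, -1.08 and -1.05 in CT HB (CT minus PA -1.23, limma adjusted p = 0.0048). FECH differed by -1.83 between CT and PA HB (limma adjusted p = 0.012), with PA values of 1.14, 3.00 and 2.81, and missed the threshold without CT HB replicate 3 (limma adjusted p = 0.063) or after quantile normalization (-0.80, limma adjusted p = 0.098). Between PA and IVV HB, FECH differed by 1.04 and was not called (limma adjusted p = 0.11). That difference was called without PA HB replicate 1 (1.63, limma adjusted p = 0.0021), shrank to 0.27 after scale and turned to -0.25 after quantile normalization.

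**Figure D2:**
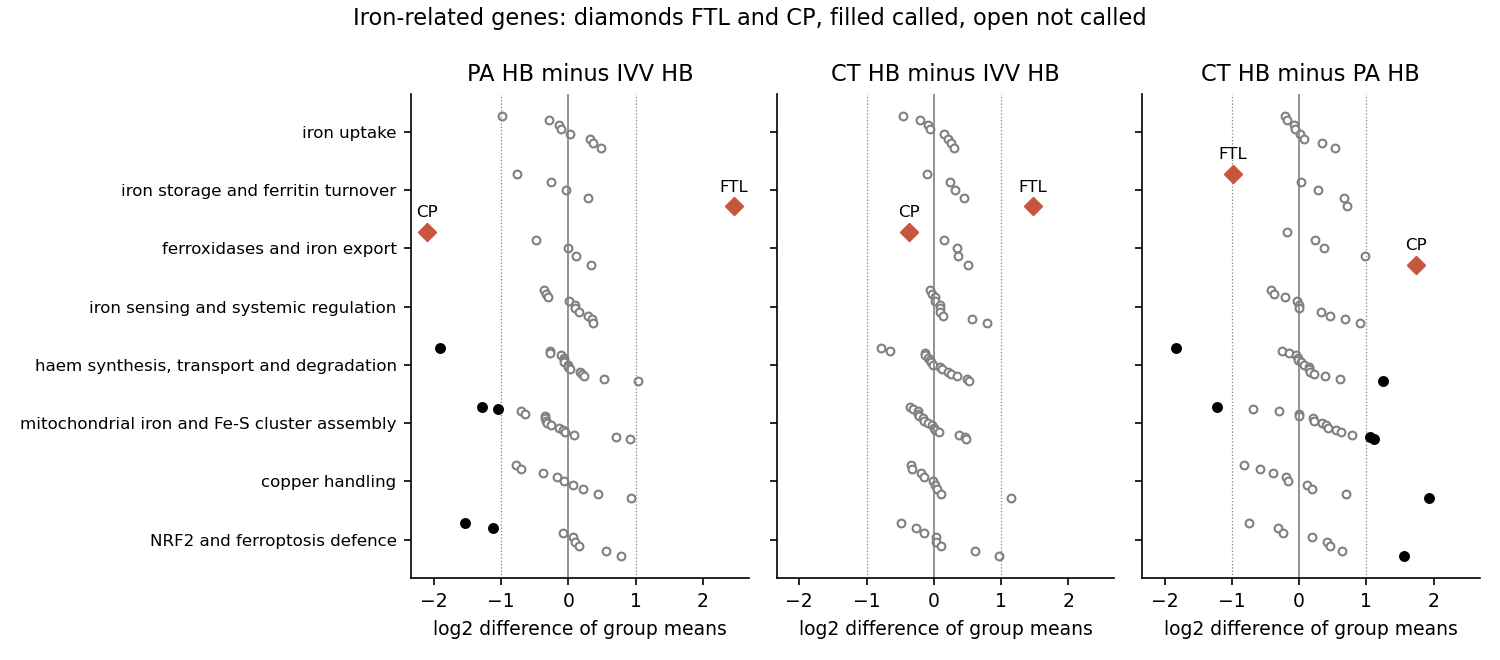
Log2 difference of group means (horizontal axis) for each measured gene of the 8 iron-related lists, in 3 comparisons, with FTL and CP as diamonds, called genes filled and other genes open; dotted lines mark 2-fold. For PA minus IVV HB, FTL at 2.46 and CP at -2.11 lie outside the range of the other 73 genes, whose lowest value is that of ABCB6 at -1.91. FTL and CP were selected for their differences between these groups. For CT minus PA HB, FECH at -1.83 lies beyond FTL at -0.98, and GLRX at 1.94 lies beyond CP at 1.74. For CT minus IVV HB, CP at -0.37 lies within the range of the other genes.

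The pattern of each gene over the 9 arrays was then set against that of FTL and of CP. For FTL, 47 genes had a Pearson correlation above 0.9 and 61 one below -0.9. For CP the counts were 61 and 112. The arrays form 3 groups and share a reference, so a high correlation says mainly that a gene had the same order of group levels.

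P2RX4, an ATP-gated ion channel, was the most like FTL (r = 0.98), with mean log2 ratios of -0.83 in IVV, 1.19 in PA and 0.64 in CT HB. ECHDC1, an enzyme that clears ethylmalonyl-CoA, followed (r = 0.98), with 0.64, 3.53 and 2.25. SUPT3H, a subunit of a chromatin-modifying coactivator complex, came next (r = 0.96), with -0.53, 1.01 and 0.14. These genes shared with FTL the order IVV below CT below PA. The unnamed loci LOC100522524 (r = 0.96) and LOC100520817 (r = 0.95) completed the set.

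The genes most like CP were LOC100516844 (r = 0.97), CCT2, a subunit of the cytosolic chaperonin (r = 0.97), VPS37A, a part of the ESCRT-I sorting complex (r = 0.97), HNRNPR, an RNA-binding protein (r = 0.96), and HSPA12A, a distant HSP70 relative (r = 0.95). Like CP, all 5 were lowest in PA HB, where CCT2 had -1.68, -2.02 and -2.40 and VPS37A had -2.58, -2.78 and -3.17.

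**Figure D3:**
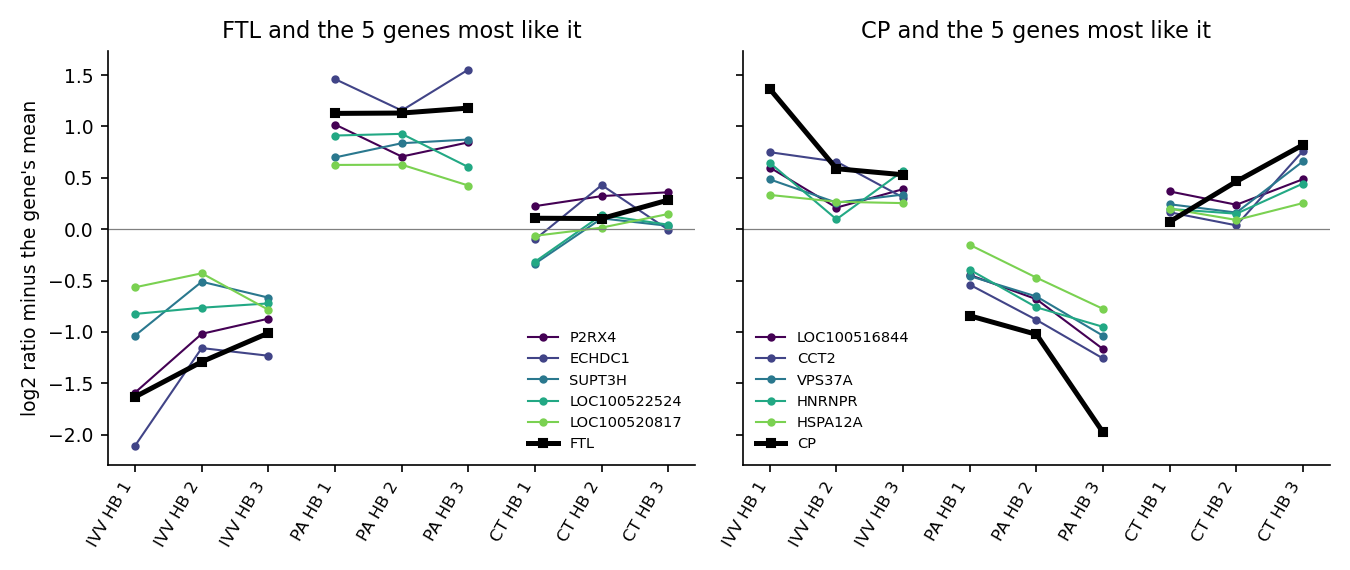
Log2 ratio minus each gene's mean over the 9 arrays (vertical axis) by array for FTL (left, black) and CP (right, black) and the 5 genes most like each, with lines joining arrays of 1 group. FTL and its 5 genes are lowest in the IVV arrays and highest in the PA arrays, and CP and its 5 genes are lowest in the PA arrays, with CP at its lowest, -2.49 before centring, in PA HB replicate 3.

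Marker lists for several cell types were read on the same arrays. The lists were chosen with earlier results of these data known, so their shares of calls are a description only. The median log2 ratio of 11 leukocyte and macrophage genes was 0.11 to 0.19 in IVV HB, 0.22 to 0.33 in CT HB and 0.43 to 0.45 in PA HB. That median had the same order as FTL, and its part in the FTL result was not tested. In that list AIF1 and INPP5D were called higher in PA and in CT than in IVV HB, and CXCR4 was called higher in PA than in IVV HB and lower in CT than in PA HB. The calls were 27.3% of the list for PA against IVV HB, beside 7.71% of all genes. They were 18.2% for CT against IVV HB, beside 0.654% of all genes, and 9.09% for CT against PA HB, beside 7.78%. The other 8 genes, among them the defining markers PTPRC, SPI1, CSF1R, FCER1G and MARCO, were not called between PA and IVV HB (differences from -0.11 for FCER1G to 0.29 for SPI1, limma adjusted p from 0.32 to 0.94). AIF1 ranged from 4.93 to 5.35 in CT HB and from 4.26 to 5.18 in PA HB, and was not called between them (limma adjusted p = 0.15). Its mean was 4.59 in PA and 5.17 in CT HB, and that of INPP5D was 1.74 and 2.02. Neither gene thus had the FTL order of CT below PA HB. CXCR4 averaged 1.28 in IVV, 3.27 in PA and 0.59 in CT HB. The median of 18 oocyte genes was -3.17 to -2.46 in IVV, -2.43 to -1.95 in PA and -3.13 to -2.85 in CT HB. Of the 18, 8 were called higher in PA than IVV HB (44.4%, beside 4.34% of all genes). In CT against PA HB 11 were called lower (61.1%, beside 4.83% of all genes). The part of the oocyte genes in the results on FTL and CP was not tested. Medians of 16 trophectoderm genes ran from -0.16 to 0.37 and of 9 hypoblast genes from -0.48 to 0.01, with overlapping groups. Single markers did differ between PA and IVV HB. GATA6, a hypoblast factor, was 2.06 higher in PA HB (4.16-fold, limma adjusted p = 0.0017) and lower in CT than in PA HB (difference -1.55, limma adjusted p = 0.0054), and its Pearson correlation was 0.88 with FTL and -0.97 with CP. Of the 9 genes on the hypoblast list, 5 were higher in PA than in IVV HB and only GATA6 was called. APOE, on the same list, went the other way (-0.91, limma adjusted p = 0.0076, under 2-fold). Its Pearson correlation was -0.92 with FTL and 0.75 with CP. FOXA2 differed by -0.64 (limma adjusted p = 0.083). The trophectoderm keratins KRT8 and KRT18 went opposite ways on these arrays, KRT8 by 1.09 (limma adjusted p = 0.020) and KRT18 by -1.12 (limma adjusted p = 0.0069). KRT19 differed by -0.26 (limma adjusted p = 0.44). The paper's QPCR instead found both KRT8 and KRT18 lower in PA than in IVV HB. The part of these markers in the results on FTL and CP was not tested. The 3 inner cell mass genes measured had medians from -0.37 to 0.53, the 4 erythroid from -0.20 to 0.43, the 9 cumulus from -0.17 to 0.18 and the 5 oviduct and uterine from -0.26 to 0.09. In the last list OVGP1 was called higher in PA than IVV HB (1.55, limma adjusted p = 0.033, 20% of the list). Between CT and PA HB OVGP1 was called lower and UPTI higher (40%, limma adjusted p = 0.047 and 0.036). HBE1, an erythroid gene, was called higher in CT than PA HB (25%, limma adjusted p = 0.049). The interquartile range of all log2 ratios was 0.853 to 1.03 on PA arrays against 0.549 to 0.670 on the others. With arrays brought to a common spread (scale normalization), the FTL difference went from 2.46 to 2.67 for PA minus IVV HB. It went from 1.48 to 1.77 for CT minus IVV HB and from -0.98 to -0.90 for CT minus PA HB. The CP differences went from -2.11 to -1.78, from -0.37 to -0.45 and from 1.74 to 1.33 in the same order. The part of the array spread in the results on FTL and CP was not tested.

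**Figure D4:**
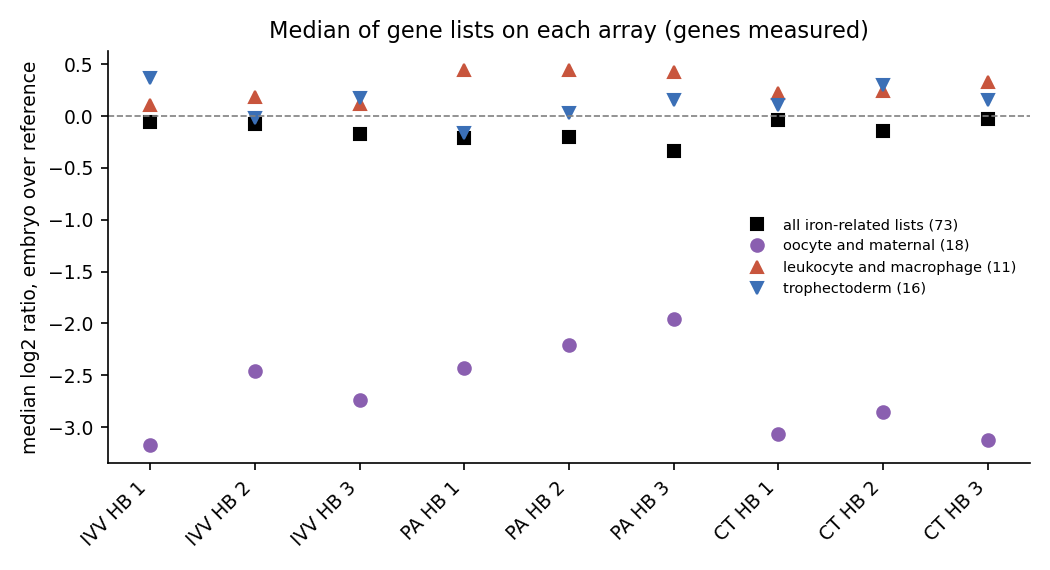
Median log2 ratio (vertical axis) of 4 gene lists on each array, with the number of genes measured in brackets. The leukocyte and macrophage median is highest on the PA arrays, at 0.43 to 0.45, the oocyte median is far below the reference on every array, and the median of the 73 iron-related genes stays between -0.33 and -0.03.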

How the data were processed

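The log2 values were deposited by the authors as 1 ratio per probe and array. Per the paper's methods, amplified RNA of embryo pools (Cy5) and of the reference (Cy3) was hybridised to the EMPV1 porcine embryo array without dye swaps, the background was subtracted, and each array was normalized by global loess in FlexArray. The base and direction of the ratio are not written beside the values. The dyes give the direction, embryo over reference, and the median of the oocyte transcripts was below 0 on each array. Spot intensities were not used, so no filter on background was possible. The number of arrays limits the precision.

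Of 23971 probes, 10344 had 1 gene symbol, 0 had several and the others had none. Symbols were updated through RefSeq accessions (1567 of 2748 matched, 201 renamed), and probes of a gene were averaged, giving 7495 genes. Groups were compared with limma 3.58.1 (R 4.3.3; lmFit, then eBayes) with a mean for each of the 3 groups and two-sided p-values, adjusted after Benjamini-Hochberg across every gene. Calls needed 2-fold and an adjusted p up to 0.05, the thresholds of the methods. The fit was also tried on simulated data, and no result of that trial is given or relied on here. Named were FTL, CP, their partners in iron handling, each iron-list gene called, and the 5 genes of highest Pearson correlation with each member; marker genes, FTMT and CYBRD1 were named besides. The members and lists were chosen with earlier results of these data known. Other scalings, probe rules, thresholds, a replicate block and leaving out each array were tried.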

Additional observations from a re-analysis of the deposited data

How the results depend on the processing

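FTL and CP kept the sign of each group difference under all 13 alternatives that change their values. FTL differences ran from 2.30 to 2.67 for PA minus IVV, from 1.32 to 1.77 for CT minus IVV (1.77 after scale normalization, and 1.32 to 1.63 with 1 array left out) and from -1.04 to -0.90 for CT minus PA (-0.90 after scale normalization). CP ran from -2.33 to -1.76, -0.56 to -0.11 and 1.33 to 1.95. Each gene had 1 probe, so taking each probe alone gave no further value.

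Counts over all genes moved more. For PA against IVV HB the 578 calls became 316 after quantile normalization, 1040 on adjusted p alone, 911 per probe and 273 (without IVV HB replicate 1) to 755 (without PA HB replicate 1) with 1 array left out. The share of calls that were higher, 56.2%, became 37.7% after quantile and 67.7% after scale normalization. For CT against IVV HB the 49 calls became 130, 105, 76 and 82 after quantile normalization, scale normalization, omission of the least variable 25% of genes and a fit per probe, and 20 to 73 with 1 array left out; the share higher went from 87.8% to 76.2% and 73.3% with the 2 scalings. For CT against PA HB the 583 calls became 371 after quantile normalization, 1081 on adjusted p alone and 326 to 790 with 1 array left out, and the share higher went from 37.9% to 60.6% and 26% with the 2 scalings. Among the 73 iron-related genes, the 5 calls of PA against IVV HB became 3 (quantile), 9 (p alone) and 2 to 7 (1 array left out). The 0 calls of CT against IVV HB became 1 after scale normalization or per probe, and 0 to 1 with 1 array left out, and the 7 of CT against PA HB became 4 (quantile), 14 (p alone), 11 (per probe) and 3 to 10 (1 array left out). The cause of these shifts was not tested.

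ABCB6 between PA and IVV HB and BOLA1 between CT and PA HB kept their calls under all 17 alternatives. Signs turned only for differences that were not called or, for FBXL5, were under 2-fold: FECH (-0.25, quantile), FTH1 (-0.21, quantile; -0.11, scale), PCBP2 (0.12, scale), FBXL5 (0.91, scale) and NFE2L2 (0.044, scale; -0.15 to 0.042 with 1 array left out) between PA and IVV HB, and FTH1 (-0.013, median centring; -0.092 to 0.17 with 1 array left out) and FBXL5 (-0.11, scale) between CT and PA HB. Of 20 further uncalled differences of these genes, 7 changed sign under some alternative, the largest of them 0.11 in size.

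Same-numbered arrays of different groups deviated together only weakly (correlations from -0.15 to 0.31), so the replicate numbers were not taken as pairs. With a replicate block the calls were 616, 56 and 614 over all genes and 5, 0 and 7 among iron-related genes.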
